A study of Homo sapiens with 6 samples.

Results

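The genes described here are 37 of the 31016 genes in the deposited table, taken by name: 30 that build or load the autophagosome and 7 of the lysosome, including TFEB and TFE3. All of them had a row, and all 37 passed the low-count filter of the test. They were measured in DLD-1, a human colorectal adenocarcinoma line, with 3 libraries of cells given TGF-β and TFA (TGFb_TFA 1 to 3) and 3 libraries of cells given TGF-β alone (TGFb 1 to 3). TFA is the total flavone fraction of the plant Abelmoschus manihot, and TGF-β is a growth factor that drives epithelial cells towards a mesenchymal state. In both groups the labels give treatment times of 24, 25 and 26 hours for libraries 1, 2 and 3, and no dose. The series' own description gives 24 hours of TGF-β with TFA after it, so it is unsure that the labelled hours are real times, and they were not used. Both groups carry TGF-β, so no value here shows what TGF-β itself did. The labels do not say that the libraries came from separate cultures, so the p-values measure the spread between these libraries, which may be technical. In bulk RNA, fewer cells of a type and less RNA per cell cannot be told apart, and an mRNA level does not measure autophagic flux.

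Autophagy is the route by which a cell wraps part of its own cytoplasm in a membrane, the autophagosome, and delivers it to the lysosome for digestion. A kinase complex (ULK) and a lipid kinase complex (class III PI3K) start the membrane, scaffold and lipid-transfer proteins enlarge it, and 2 linked conjugation reactions attach ATG8-family proteins (LC3 and GABARAP) to it. Lysosomes carry heavily glycosylated membrane proteins and acid hydrolases, and the transcription factors TFEB and TFE3 switch on many of their genes. In tumour cells the pathway can recycle nutrients and also remove damaged parts.

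Total estimated counts per library ran from 60361756 to 68745953. TGFb_TFA 3 stood apart from the other libraries of its group. The chi-square per degree of freedom between count profiles was 214 and 208 against TGFb_TFA 1 and 2, whereas TGFb_TFA 1 and 2 differed by 12 and the TGFb pairs by 36.9 to 80.1. If each fragment gave 4 counts, the same values would be 53.4 and 51.9, 3.01, and 9.22 to 20.0. Of the 12 fixed markers of colorectal epithelium, 11 had a row, with summed levels of 1434 to 1583 FPKM in the TGFb_TFA libraries and 1546 to 1818 FPKM in the TGFb libraries, and EPCAM, KRT8 and KRT18 were abundant in all 6. VIL1, GPA33 and LGALS4 of that list stayed under 0.31 FPKM. Fibroblast markers (8 of 8 with a row) summed to 0.44 to 2.35 FPKM in the TGFb_TFA libraries and 0.038 to 0.346 FPKM in the TGFb libraries, with DCN, LUM and COL3A1 at 0 in TGFb_TFA 1 and in all TGFb libraries. The 5 of them that were tested all had fitted values above 0, 3 at an unadjusted p under 0.05, against 1.07% of all tested genes on that side, and 0 called. Their part in the values of the autophagy genes was not tested. Endothelial markers (7 of 7) summed to 1.95 to 2.22 FPKM in the TGFb_TFA libraries and 1.31 to 1.81 FPKM in the TGFb libraries, with CDH5 at 0 in all libraries except TGFb_TFA 3. Haematopoietic markers (6 of 8) summed to 0.370 to 0.544 FPKM in the TGFb_TFA libraries and 0.360 to 0.588 FPKM in the TGFb libraries.

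None of the 37 genes was called higher or lower with TFA. The fit covered 18265 genes, and calls were made where the p of edgeR's quasi-likelihood test, after Benjamini-Hochberg adjustment, was under 0.05. Over all tested genes 0.0109% were called higher and 0% lower, so a count of 0 among 37 is what that background gives. At an unadjusted p under 0.05 stood 1 of the 37 genes, WIPI1, on the higher side, against 1.07% of all tested genes, and 0 on the lower side, against 0.761%. DESeq2 also called 0 of the 37, with backgrounds of 0.0609% higher and 0.00937% lower. Counts scaled to library size (CPM) overlapped between the groups in 36 of the 37 genes. In WIPI1 every TGFb_TFA library lay above every TGFb library, an order found in 4.58% of all tested genes. Fitted values were above 0 for 18 genes and below 0 for 19.

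The 30 autophagosome genes had a median log2 fold change of -0.0063, with 15 above 0 and 15 below. The 7 lysosome genes had a median of -0.09, with 3 above 0 and 4 below. Over all tested genes the median was 0.01. The fitted values ran from -0.41 (ATG2A) to 0.51 (MAP1LC3A), both genes expressed below 1 FPKM. Both extremes moved with single libraries: ATG2A had -0.96 without TGFb_TFA 1, -0.045 without TGFb_TFA 3 and -0.11 without TGFb 3, and MAP1LC3A had 0.05 without TGFb_TFA 3. The intervals rest on the spread between these libraries, which may be technical, so they bound a change only under that spread. In 25 of the 37 genes the 95% interval of the log2 fold change lay within a 1.5-fold change either way, and in 33 within a 2-fold change. The same held for 57.1% and 91.8% of the genes with a mean of at least 1 FPKM. The 4 genes with wider intervals were ATG2A, ATG2B, MAP1LC3A and TFEB.

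**Figure D1:**
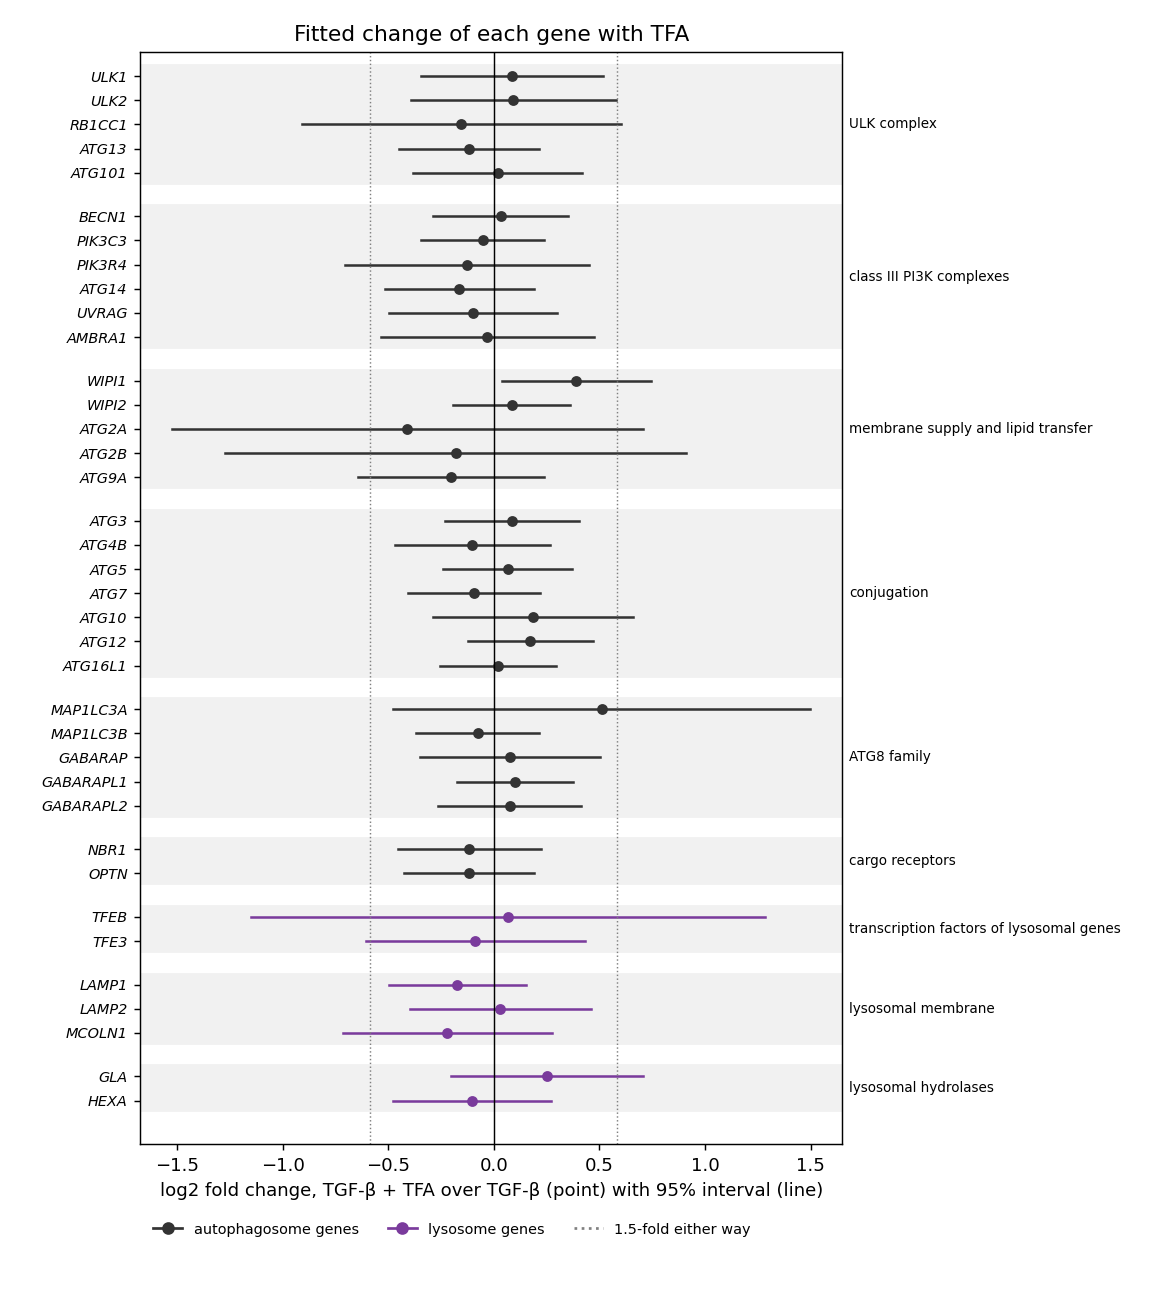
Fitted log2 fold change (point) and 95% interval (line) of each of the 37 genes, TGF-β with TFA over TGF-β, grouped by role, with dotted lines at a 1.5-fold change either way. All intervals except that of WIPI1 (0.04 to 0.74) hold 0, and 25 lie within the dotted lines.

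Levels differed far more between genes than between groups. By the mean of 6 libraries, 10 genes stood at 10 FPKM or more, 21 between 1 and 10 FPKM, and 6 below 1 FPKM (ULK1, ULK2, ATG2A, ATG2B, MAP1LC3A and TFEB). GABARAP was the highest and TFEB the lowest. Summed over the 37 genes, the level was 327, 329 and 328 FPKM in TGFb_TFA 1 to 3, against 333, 328 and 326 FPKM in TGFb 1 to 3. The summed levels of the groups overlapped, and GABARAP made up the largest part of each sum. Over all genes FPKM summed to 310191, 304211 and 351352 in TGFb_TFA 1 to 3, and 309836, 340807 and 320627 in TGFb 1 to 3. Equal sums are therefore not equal shares of a library, which also limits the marker sums above. FPKM values were used as deposited, without the scaling of the fit. GABARAP was highest in TGFb_TFA 3, at 107.8 FPKM, so the sum does not show that the other genes were level in that library.

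**Figure D2:**
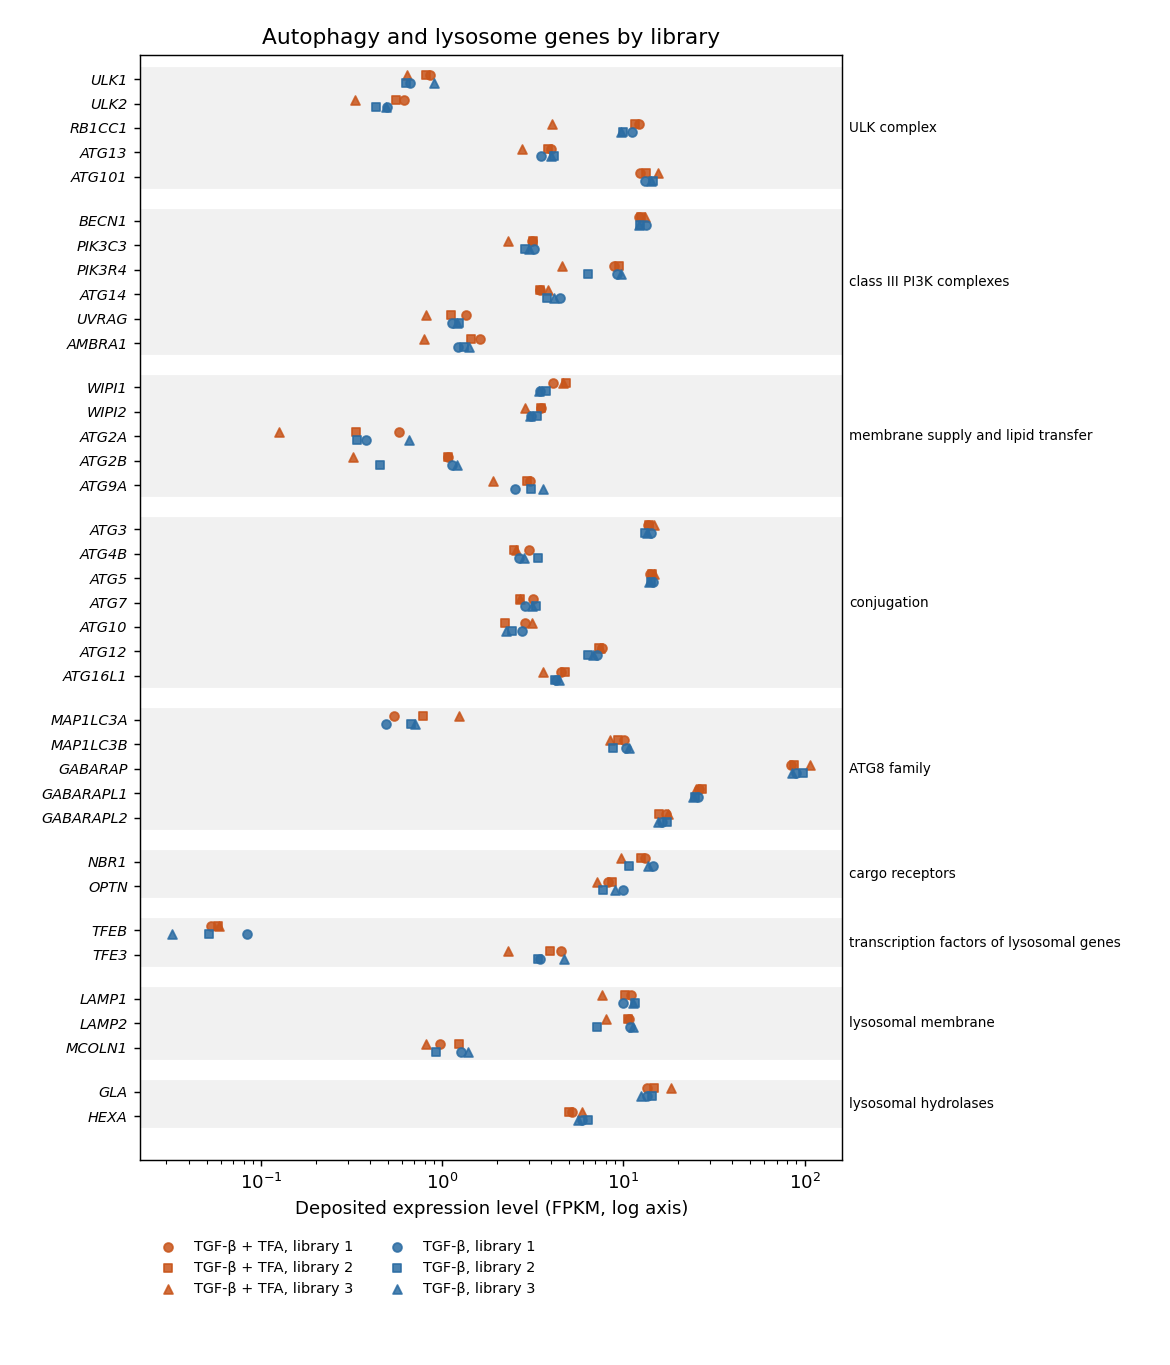
Deposited expression level (FPKM, log axis) of the 37 genes in each of the 6 libraries, grouped by role, with TGF-β and TFA in orange and TGF-β alone in blue, and a marker shape for each library number. WIPI1 is the 1 gene whose scaled counts do not overlap between groups, and the triangle of TGFb_TFA 3 lies far to the left for RB1CC1, ATG2A and ATG2B.

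The ULK complex consists of the kinase ULK1 or its relative ULK2, the scaffolds RB1CC1 (FIP200) and ATG13, and ATG101, which stabilizes ATG13. The kinases were scarce: ULK1 averaged 0.768 ± 0.113 FPKM with TFA and 0.735 ± 0.148 FPKM with TGF-β alone (SD, n = 3 each). ULK2 averaged 0.498 ± 0.148 FPKM with TFA and 0.471 ± 0.033 FPKM without it. Their log2 fold changes were both 0.09, with intervals of -0.34 to 0.52 for ULK1 and -0.39 to 0.58 for ULK2. ATG101 was the most abundant subunit, at 12.4, 13.3 and 15.6 FPKM in TGFb_TFA 1 to 3, against 13.2, 14.6 and 14.1 FPKM in TGFb 1 to 3. Its groups overlapped, with a log2 fold change of 0.02 (95% interval -0.38 to 0.42). ATG13 averaged 3.52 ± 0.655 FPKM with TFA and 3.88 ± 0.333 FPKM without it (log2 fold change -0.12, 95% interval -0.45 to 0.21).

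RB1CC1 differed between the TFA libraries themselves. It stood at 12.1, 11.7 and 4.04 FPKM in TGFb_TFA 1 to 3, against 11.1, 9.95 and 9.74 FPKM in TGFb 1 to 3. TGFb_TFA 1 and 2 were the highest of the 6 libraries and TGFb_TFA 3 was the lowest. The fitted log2 fold change of RB1CC1 was -0.15 (95% interval -0.91 to 0.60), and without TGFb_TFA 3 it was 0.17.

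The class III PI3K complexes make the lipid PI3P on the growing membrane. PIK3C3 (VPS34) is the kinase, PIK3R4 (VPS15) its regulatory subunit and BECN1 the core scaffold, while ATG14 and UVRAG define separate complexes. AMBRA1 binds BECN1 and promotes the pathway. By FPKM, BECN1 varied little, at 12.1, 12.5 and 13.1 FPKM with TFA, against 13.3, 12.3 and 12.2 FPKM with TGF-β alone. By the scaled counts, BECN1 had 84.1, 86.3 and 106 CPM with TFA, against 94.4, 89.5 and 86.2 CPM with TGF-β alone. The groups overlapped, and the log2 fold change of BECN1 was 0.03 (95% interval -0.29 to 0.35). PIK3C3 averaged 2.87 ± 0.485 FPKM with TFA and 3.02 ± 0.169 FPKM without it (log2 fold change -0.05, 95% interval -0.35 to 0.24).

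ATG14 had 3.45, 3.46 and 3.82 FPKM in TGFb_TFA 1 to 3, against 4.45, 3.79 and 4.13 FPKM in TGFb 1 to 3. Only TGFb_TFA 3 reached into the range of the TGF-β libraries, with a log2 fold change of -0.16 (95% interval -0.52 to 0.19). Without TGFb_TFA 3 the log2 fold change of ATG14 was -0.30, at an unadjusted p of 0.0474 and an adjusted p of 0.999 (edgeR quasi-likelihood test). In that fit 2.64% of all tested genes had an unadjusted p under 0.05, and ATG14 was under 0.05 in no other setting. UVRAG, at 1.10 ± 0.272 FPKM with TFA and 1.19 ± 0.050 FPKM without it, had a log2 fold change of -0.10. AMBRA1 averaged 1.28 ± 0.434 FPKM with TFA and 1.32 ± 0.090 FPKM without it (log2 fold change -0.03, 95% interval -0.54 to 0.47). PIK3R4 stood at 8.92, 9.47 and 4.58 FPKM with TFA, against 9.17, 6.36 and 9.69 FPKM with TGF-β alone. In PIK3R4 the low libraries were TGFb_TFA 3 and TGFb 2, and the log2 fold change was -0.13 (95% interval -0.70 to 0.45).

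WIPI1 and WIPI2 bind PI3P on the forming membrane, ATG2A and ATG2B transfer lipids into it, and ATG9A is the membrane protein of the vesicles that seed it. WIPI1 (ENSG00000070540, chromosome 17, 68420948 to 68457499, minus strand, GRCh38) had 4.08, 4.85 and 4.66 FPKM in TGFb_TFA 1 to 3, against 3.48, 3.72 and 3.42 FPKM in TGFb 1 to 3. All TFA libraries were above all TGF-β libraries, by the smallest margin between TGFb_TFA 1 and TGFb 2. The estimated counts were 944, 1153 and 1083 with TFA, against 916, 940 and 830 with TGF-β alone. The fitted log2 fold change of WIPI1 was 0.39 (SE 0.15, 95% interval 0.04 to 0.74), a 1.31-fold value, and the p before adjustment was 0.0344. After Benjamini-Hochberg adjustment over all genes it was 0.9997 (edgeR), so WIPI1 was not called. Over 16 settings, that fit included, the log2 fold change of WIPI1 stayed between 0.26 and 0.48, and the unadjusted p was under 0.05 in 9 of them. The unadjusted p was 0.102 without TGFb_TFA 2, 0.0784 without TGFb_TFA 3, 0.0986 without TGFb 1 and 0.129 without TGFb 3 (edgeR). In GENCODE 29, 828 of the 3402 exon bases of WIPI1 (24.3%) lie opposite exons of ARSG, a lysosomal sulfatase gene on the other strand. ARSG was at a mean of 0.322 FPKM over the 6 libraries, with a log2 fold change of 0.04.

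WIPI2, the relative of WIPI1, had 3.50, 3.51 and 2.87 FPKM with TFA, against 3.08, 3.35 and 3.05 FPKM with TGF-β alone. Within each library the ratio of WIPI1 to WIPI2 was 1.17, 1.38 and 1.62 in TGFb_TFA 1 to 3, against 1.13, 1.11 and 1.12 in TGFb 1 to 3. The ratio was nearly the same in the TGF-β libraries and higher in every TFA library, by little in TGFb_TFA 1. Of the ratios taken between related members, it was the only one whose groups did not overlap. It largely repeats the order of WIPI1 itself and is no separate support, and the share of such an order over other gene pairs was not computed. Effective length, count over FPKM, was short for WIPI1 and long for WIPI2, and it follows the annotated exons of a gene, not 1 transcript. TGFb_TFA 3, where the ratio of WIPI1 to WIPI2 was highest, was raised for genes of short effective length. It was lowered for those of long effective length, both in the median of the 37 genes. The part of length in the ratio of WIPI1 to WIPI2 was not tested. The log2 fold change of WIPI2 itself was 0.08 (95% interval -0.19 to 0.36).

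ATG2B had 1.07, 1.07 and 0.32 FPKM in TGFb_TFA 1 to 3, against 1.13, 0.452 and 1.20 FPKM in TGFb 1 to 3. ATG2A had 0.578, 0.336 and 0.126 FPKM with TFA, against 0.378, 0.338 and 0.656 FPKM with TGF-β alone. For both lipid-transfer genes TGFb_TFA 3 was the lowest of the 6 libraries and TGFb 2 the lowest of its group. The log2 fold change was -0.18 for ATG2B (95% interval -1.27 to 0.91) and -0.41 for ATG2A (95% interval -1.52 to 0.70). ATG9A averaged 2.64 ± 0.632 FPKM with TFA and 3.08 ± 0.541 FPKM without it (log2 fold change -0.20, 95% interval -0.64 to 0.24). On its own strand ATG9A shares 1833 exon bases with another gene model, AC068946, and counts summed over both gave -0.23.

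Among the conjugation genes, fitted values ran from -0.10 to 0.19. ATG7 is the activating enzyme of both reactions, ATG3 and ATG10 carry the conjugates, and ATG12 joined to ATG5 acts with ATG16L1 to place ATG8 proteins on the membrane. ATG4B is the protease that trims ATG8 proteins. ATG5 had 14.1, 14.4 and 14.8 FPKM with TFA, against 14.6, 14.1 and 13.8 FPKM with TGF-β alone. ATG3 was at a similar level, 14.1 ± 0.530 FPKM with TFA and 13.6 ± 0.480 FPKM without it. Their log2 fold changes were 0.06 (95% interval -0.24 to 0.37) for ATG5 and 0.09 (95% interval -0.23 to 0.40) for ATG3.

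ATG12 had 7.58, 7.33 and 7.47 FPKM in TGFb_TFA 1 to 3, against 7.14, 6.41 and 6.82 FPKM in TGFb 1 to 3. By FPKM its TFA libraries all lay above the TGF-β libraries, whereas by scaled counts the groups overlapped. The share of all genes with that order by FPKM was not computed. The log2 fold change of ATG12 was 0.17 (95% interval -0.12 to 0.47). ATG7 had a log2 fold change of -0.09, ATG4B of -0.10 and ATG16L1 of 0.02, with mean levels over the 6 libraries of 2.97, 2.82 and 4.29 FPKM. ATG10, at 2.73 ± 0.465 FPKM with TFA and 2.48 ± 0.268 FPKM without it, had 0.19 (95% interval -0.29 to 0.66). Of the 7 conjugation genes, 6 had intervals within a 1.5-fold change, the exception being ATG10.

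ATG8-family proteins coat the autophagosome and bind cargo receptors. GABARAP (ENSG00000170296, chromosome 17, 7240008 to 7242449, minus strand) was the most abundant of all 37 genes, at 84.3, 87.3 and 107.8 FPKM with TFA, against 90.1, 98.0 and 85.4 FPKM with TGF-β alone. TGFb_TFA 3 was the highest and TGFb_TFA 1 the lowest of the 6 libraries, and the log2 fold change was 0.08 (95% interval -0.35 to 0.50). GABARAP held 61.1% to 67.3% of the summed FPKM of the 5 family members in the TGFb_TFA libraries and 62.6% to 65.5% in the TGFb libraries. GABARAPL1 followed, at 26.1 ± 1.02 FPKM with TFA and 24.9 ± 0.880 FPKM without it (log2 fold change 0.10, 95% interval -0.18 to 0.37). GABARAPL2 had 16.9 ± 0.977 FPKM with TFA and 16.4 ± 0.855 FPKM without it (log2 fold change 0.08).

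Of the LC3 genes, MAP1LC3B, whose protein is the usual laboratory marker of autophagosomes, stood at 10.01, 9.28 and 8.42 FPKM with TFA, against 10.4, 8.81 and 10.7 FPKM with TGF-β alone. Its log2 fold change was -0.08 (95% interval -0.37 to 0.21). MAP1LC3A had 43, 64 and 97 estimated counts with TFA, against 44, 58 and 59 with TGF-β alone. The value of 0.51 fitted for MAP1LC3A (95% interval -0.48 to 1.5) rested on TGFb_TFA 3, with 0.05 without that library and -0.12 without it and TGFb 1. The level of MAP1LC3B was 6.83 to 18.4 times that of MAP1LC3A in the TGFb_TFA libraries and 13.0 to 21.1 times in the TGFb libraries, per length.

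MAP1LC3B on chromosome 16 has a copy on chromosome 12, MAP1LC3B2, which the table lists as a gene of its own. Their coding sequences (GENCODE 29, 378 bases each) differ at 2 positions and share an unbroken run of 307 bases. The first and last 60 coding bases of both are shown, 5′ to 3′, because they hold the differing bases, in capitals, by which reads of the coding sequence could be assigned.
MAP1LC3B, first bases: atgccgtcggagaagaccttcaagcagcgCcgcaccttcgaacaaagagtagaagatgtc
MAP1LC3B2, first bases: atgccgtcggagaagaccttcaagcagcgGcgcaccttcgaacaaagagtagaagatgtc
MAP1LC3B, last bases: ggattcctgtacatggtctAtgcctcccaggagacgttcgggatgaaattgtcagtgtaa
MAP1LC3B2, last bases: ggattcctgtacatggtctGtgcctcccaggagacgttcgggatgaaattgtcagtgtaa
Reads from within the shared run cannot be told apart by these letters, so the division of counts between the copies is uncertain there. The near-identical match spanned 601 bases (97.3%) of a MAP1LC3B transcript of 2688 bases, so the uncertainty concerns reads from that part. MAP1LC3B2 averaged 0.806 ± 0.173 FPKM with TFA and 0.617 ± 0.256 FPKM without it, with a log2 fold change of 0.41 (95% interval -0.38 to 1.20). Counts summed over both genes gave -0.06, against -0.08 for MAP1LC3B alone. ATG12 has a near-identical processed pseudogene, AC025198 (96.2% over 419 bases), and their summed counts gave 0.17, as ATG12 alone did.

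Exons of several other members also overlap, in GENCODE 29, genes that have rows of their own, and counts may be shared there. On the opposite strand these are HARBI1 (ATG13), CNTD1 and PSME3 (BECN1), GSKIP (ATG2B), SLC35A5 (ATG3), THAP4 (ATG4B), VGLL4 (ATG7), RPS23 (ATG10), AP3S1 (ATG12), FBXO31 (MAP1LC3B), CCDC3 (OPTN), AC120057 (GABARAP), AC060780 (NBR1), HEXA-AS1 and an AC009690 gene (HEXA), UVRAG-DT and AP002340 (UVRAG) and AC007780 (WIPI1). On the same strand MCOLN1 overlaps PNPLA6 and AC008878, and HEXA overlaps a second AC009690 gene. VGLL4 faces 18.1% of the exon bases of ATG7 and had a log2 fold change of -0.25, and none of the neighbours that were tested was called. RPS23, a ribosomal protein gene that faces 6.9% of the exon bases of ATG10, was far above it, at a mean of 319 FPKM against 2.6 FPKM. Both had their highest level in TGFb_TFA 3, the log2 fold change of RPS23 was 0.31, and how far its reads entered the value of ATG10 was not tested. UVRAG-DT, AP002340, AC007780 and AC008878 had too few counts to be tested. Summed with AC008878, MCOLN1 had -0.23, and summed with its same-strand AC009690 gene, HEXA had -0.10. GABARAP shares 691 exon bases (30.5%) with a gene model on its own strand that was not analysed here.

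NBR1 and OPTN are cargo receptors, which link ubiquitin-tagged material to ATG8 proteins. NBR1 had 13.1, 12.5 and 9.69 FPKM with TFA, against 14.5, 10.8 and 13.6 FPKM with TGF-β alone. OPTN had 8.21, 8.69 and 7.15 FPKM with TFA, against 9.98, 7.68 and 8.97 FPKM with TGF-β alone. Both overlapped between the groups, with TGFb_TFA 3 and TGFb 2 as the lowest libraries of their groups by FPKM. By scaled counts the lowest TFA library of OPTN was TGFb_TFA 1, at 45.6 CPM against 46.4 CPM in TGFb_TFA 3. NBR1 and OPTN each had a log2 fold change of -0.12 with an interval within a 1.5-fold change.

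Among the transcription factors of lysosomal genes, TFE3 was the more abundant. It had 4.51, 3.93 and 2.32 FPKM in TGFb_TFA 1 to 3, against 3.45, 3.39 and 4.69 FPKM in TGFb 1 to 3. The groups overlapped (log2 fold change -0.09, 95% interval -0.61 to 0.43). TFEB had 21, 24 and 25 estimated counts with TFA, against 38, 23 and 14 with TGF-β alone, at 0.056 ± 0.0031 FPKM with TFA and 0.0558 ± 0.026 FPKM without it. At this depth the 95% interval of the log2 fold change of TFEB was wide, from -1.15 to 1.28. Both proteins are known to be controlled mainly by their location in the cell, which RNA does not show.

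LAMP1 and LAMP2, the main glycoproteins of the lysosomal membrane, stood near 10 FPKM. LAMP1 had 11.0, 10.1 and 7.61 FPKM with TFA, against 9.95, 11.6 and 11.3 FPKM with TGF-β alone. LAMP2 had 10.8, 10.7 and 8.01 FPKM with TFA, against 10.9, 7.14 and 11.3 FPKM with TGF-β alone. Both overlapped between the groups, with log2 fold changes of -0.17 (95% interval -0.50 to 0.15) for LAMP1 and 0.03 (95% interval -0.40 to 0.46) for LAMP2. MCOLN1, the calcium channel of lysosomes, was lower in level, at 1.003 ± 0.212 FPKM with TFA and 1.19 ± 0.245 FPKM without it (log2 fold change -0.22, 95% interval -0.72 to 0.27).

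GLA, the alpha-galactosidase A lost in Fabry disease, had 13.4, 14.7 and 18.3 FPKM with TFA, against 13.6, 14.4 and 12.4 FPKM with TGF-β alone. TGFb_TFA 3 was the highest of the 6 libraries and TGFb_TFA 1 lay inside the TGF-β range, so the groups overlapped (log2 fold change 0.25, 95% interval -0.20 to 0.71). Without TGFb_TFA 3 the log2 fold change of GLA was 0.017. HEXA, the alpha subunit of the beta-hexosaminidase lost in Tay-Sachs disease, had 5.21, 5.02 and 5.91 FPKM with TFA, against 5.91, 6.36 and 5.59 FPKM with TGF-β alone. TGFb_TFA 1 and 2 were the lowest libraries of HEXA, and the log2 fold change was -0.10 (95% interval -0.48 to 0.27). Without TGFb_TFA 3 the log2 fold change of HEXA was -0.26, at an unadjusted p of 0.0492 and an adjusted p of 0.999 (edgeR quasi-likelihood test). In that fit 2.64% of all tested genes had an unadjusted p under 0.05, and HEXA was under 0.05 in no other setting.

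TFEB and TFE3 bind a palindrome known as the CLEAR motif, whose core is CACGTG. RefSeq promoter sequences (GRCh38.p14) were matched for 32 of the 37 genes, and the 250 bases before the start were searched on both strands, which read alike for these palindromes. The 5 genes with no entry were RB1CC1, UVRAG, MAP1LC3A, LAMP2 and HEXA. The core CACGTG was found in 2 of 5 lysosome genes (LAMP1 and MCOLN1) and 2 of 27 autophagosome genes (ATG3 and ATG14), and in 7.73% of 27305 genes with a promoter entry. The autophagosome share, 7.41%, was near that of all genes. Of other genes with an entry, 26.1% of 23 lysosomal proteases and hydrolases and 27.3% of 11 V-ATPase genes held the core. The longer TCACGTGA, which contains the core, was found in LAMP1 and MCOLN1 and in 1.04% of all genes. The upstream sequences of these 4 genes are given with each CACGTG in capitals, because they show how many copies each holds and how near the start, which lies just after the last base.
LAMP1: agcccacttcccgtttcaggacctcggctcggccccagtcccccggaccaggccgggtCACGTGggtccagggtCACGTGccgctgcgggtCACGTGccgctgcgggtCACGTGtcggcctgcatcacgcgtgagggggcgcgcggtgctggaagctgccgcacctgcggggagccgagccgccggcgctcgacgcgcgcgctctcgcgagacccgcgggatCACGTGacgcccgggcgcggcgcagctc
MCOLN1: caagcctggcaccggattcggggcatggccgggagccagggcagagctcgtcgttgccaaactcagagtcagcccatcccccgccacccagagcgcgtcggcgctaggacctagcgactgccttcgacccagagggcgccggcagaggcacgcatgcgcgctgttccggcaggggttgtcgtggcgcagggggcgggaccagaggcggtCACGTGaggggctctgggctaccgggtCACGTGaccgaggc
ATG3: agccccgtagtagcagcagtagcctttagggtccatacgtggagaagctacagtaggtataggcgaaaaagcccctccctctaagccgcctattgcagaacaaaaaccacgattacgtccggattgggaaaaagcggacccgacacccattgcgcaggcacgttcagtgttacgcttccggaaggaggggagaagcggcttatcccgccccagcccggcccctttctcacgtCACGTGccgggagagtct
ATG14: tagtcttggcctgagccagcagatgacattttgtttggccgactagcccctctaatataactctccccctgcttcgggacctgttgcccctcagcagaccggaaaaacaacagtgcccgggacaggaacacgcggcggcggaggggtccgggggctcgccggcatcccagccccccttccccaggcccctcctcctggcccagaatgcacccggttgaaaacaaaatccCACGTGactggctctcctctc
The LAMP1 sequence (chr13:113296989-113297238, plus strand) holds 5 copies and that of MCOLN1 (chr19:7522374-7522623, plus strand) holds 2. ATG3 (chr3:112561963-112562212, minus strand) and ATG14 (chr14:55411831-55412080, minus strand) hold 1 each. None of these 4 genes was called, and their log2 fold changes were -0.17, -0.22, 0.09 and -0.16 in the order of the sequences. A match of letters is a description and does not show that a factor bound there.

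By scaled counts, in 27 of the 37 genes TGFb_TFA 3 was either the lowest library (14 genes, 37.8%) or the highest (13 genes, 35.1%). Among tested genes with a mean of at least 1 FPKM it was the lowest in 34.3% and the highest in 35.4%, so the 37 genes were near the background. Set against the mean of TGFb_TFA 1 and 2, TGFb_TFA 3 was lower by at least 0.5 on the log2 CPM scale in 7 genes. These were ATG2A (-1.55), ATG2B (-1.51), RB1CC1 (-1.33), PIK3R4 (-0.78), AMBRA1 (-0.72), TFE3 (-0.64) and ULK2 (-0.58). It was higher by at least 0.5 in 5 genes, namely MAP1LC3A (1.10), GLA (0.61), GABARAP (0.56), ATG10 (0.54) and ATG101 (0.51).

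The effective length of a gene, the ratio of count to FPKM, moved with these deviations. In relative units it ran near the merged exon bases of all annotated transcripts (13797 against 12611 for HEXA, 3830 against 3402 for WIPI1). It is therefore not the length of 1 expressed transcript. The 12 genes with the shortest effective length had a median difference of 0.22 between TGFb_TFA 3 and the other TFA libraries, and the 12 longest had -0.18. Across the 37 genes the Spearman correlation of length with the deviation of TGFb_TFA 3 from the mean of all libraries was -0.40, and over all tested genes -0.35. Across the 37 genes it was 0.52 in TGFb_TFA 1, the opposite direction, and in the other 4 libraries it ran from -0.06 to 0.27. TGFb 2 had -0.24 over all tested genes, the same direction as TGFb_TFA 3, so the trend was not particular to that library. The remaining libraries had 0.09 to 0.28 over all tested genes. The points of each correlation share 1 library, and genes are not independent. In the TGF-β group the library that stood out was TGFb 2, by -1.32 for ATG2B, -0.60 for LAMP2 and -0.53 for PIK3R4 against the mean of TGFb 1 and 3. With the length trend of each library removed, 0 of the 37 genes were called, and the fitted values ran from -0.41 to 0.42. RB1CC1 then had -0.17, and WIPI1 had 0.38.

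**Figure D3:**
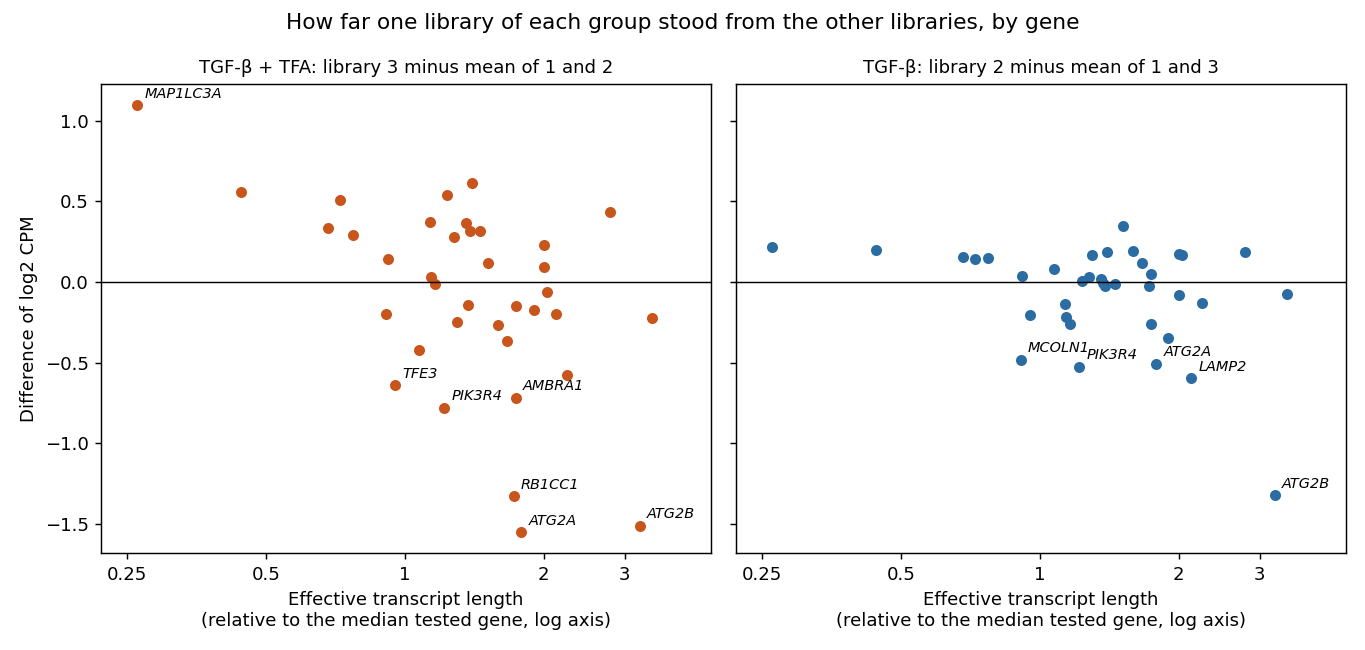
Difference of log2 CPM between 1 library and the mean of the other 2 of its group, 1 point for each of the 37 genes. The log axis is effective length relative to the median tested gene, which follows annotated exons and not 1 expressed transcript. On the left, TGFb_TFA 3 spreads from -1.55 (ATG2A) to 1.10 (MAP1LC3A), and on the right TGFb 2 stays within about 0.6 of 0 except for ATG2B (-1.32).

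Without TGFb_TFA 3, 15 of the 37 fitted values changed sign. The 7 genes that were low in that library then had log2 fold changes of -0.045 (ATG2A), 0.17 (ATG2B), 0.17 (RB1CC1), 0.09 (PIK3R4), 0.17 (AMBRA1), 0.09 (TFE3) and 0.26 (ULK2). The 5 that were high in it had 0.05 (MAP1LC3A), 0.017 (GLA), -0.13 (GABARAP), -0.013 (ATG10) and -0.17 (ATG101). The median of the autophagosome genes without it was -0.02, and that of the lysosome genes -0.08.

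The rest of the pathway gave the same count. In 7 further lists of autophagy and lysosome genes, 142 of 143 genes with a row were tested, 0 were called, and the median log2 fold change was -0.03, with 62 above 0 and 80 below. At an unadjusted p under 0.05 stood 1 gene on the higher side (PRKAA2) and 2 on the lower side (BNIP3L and SMPD1), 3 of 142 in all, against 1.07% of all tested genes on the higher side and 0.761% on the lower, so the count is near the background. PRKAA2, a catalytic subunit of the energy sensor AMPK, had 53, 11 and 38 counts with TFA, against 0, 8 and 6 with TGF-β alone, a trace level in both groups. BNIP3L, a receptor for removal of mitochondria, had 26.9, 27.9 and 19.4 FPKM with TFA, against 34.1, 28.2 and 31.9 FPKM with TGF-β alone (log2 fold change -0.32, 95% interval -0.64 to -0.0059). SMPD1, the acid sphingomyelinase, had 4.06, 3.34 and 2.69 FPKM with TFA, against 4.09, 4.45 and 5.79 FPKM with TGF-β alone (log2 fold change -0.48, 95% interval -0.91 to -0.06). All 3 had an adjusted p of 0.9997 (edgeR, Benjamini-Hochberg).

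The lysosomal proteases and hydrolases (36 tested, median -0.08) had 12 values above 0 and 24 below, whereas 51.9% of all tested genes were above 0. Without TGFb_TFA 3 the median of this list was -0.010. In 5 of the 36 genes every TFA library lay below every TGF-β library by scaled counts, namely CTSB, GLB1, LGMN, NAGLU and SMPD1 (named after their values were seen), against 3.33% of all tested genes. In 0 of the 36 every TFA library lay above, against 4.58% of all tested genes. Over all the further lists together, this one included, 8 of 142 tested genes lay below in this way and 3 above. A difference between the lists was not tested. CTSB, the protease cathepsin B, had 23.7, 22.5 and 20.8 FPKM with TFA, against 24.3, 30.2 and 27.4 FPKM with TGF-β alone (log2 fold change -0.26, 95% interval -0.57 to 0.05). GLB1, a beta-galactosidase, had a log2 fold change of -0.22, LGMN, the protease legumain, -0.23 and NAGLU -0.08, each with an interval that held 0. The most abundant gene of the list, PPT1, a thioesterase, had 0.08 and the extremes were IDUA (0.18) and the trace gene CTSF (-0.9998).

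Lysosomal membrane genes (19 tested) had a median of 0.02, with NPC2, a cholesterol carrier of the lysosome and the most abundant gene of the list, at 0.05, TPCN1 at -0.47 and MFSD8 at 0.22. The subunits of the V-ATPase, the proton pump that acidifies lysosomes (16 tested), had a median of -0.02 and ran from -0.15 (ATP6V0A2) to 0.24 (ATP6V1G1), with ATP6V1F, the most abundant, at 0.19. All 16 had intervals within a 2-fold change. Genes of fusion (15 tested) had a median of -0.04, with the most abundant, the SNARE VAMP8, at 0.09, VPS16 at -0.25 and STX8 at 0.17. Other cargo receptors (14 tested) had a median of -0.08, from BNIP3L to BNIP3 (0.79, 95% interval -0.61 to 2.18), with PHB2, the most abundant, at 0.06. Other autophagosome genes (15 tested) had a median of 0.04, from EPG5 (-0.24) to MAP1LC3B2, with VMP1, the most abundant, at 0.07. Genes of nutrient sensing and TFEB control (27 tested) had a median of -0.01, with YWHAZ, the most abundant, at -0.01 and MITF, a relative of TFEB, the lowest at -0.31.

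**Figure D4:**
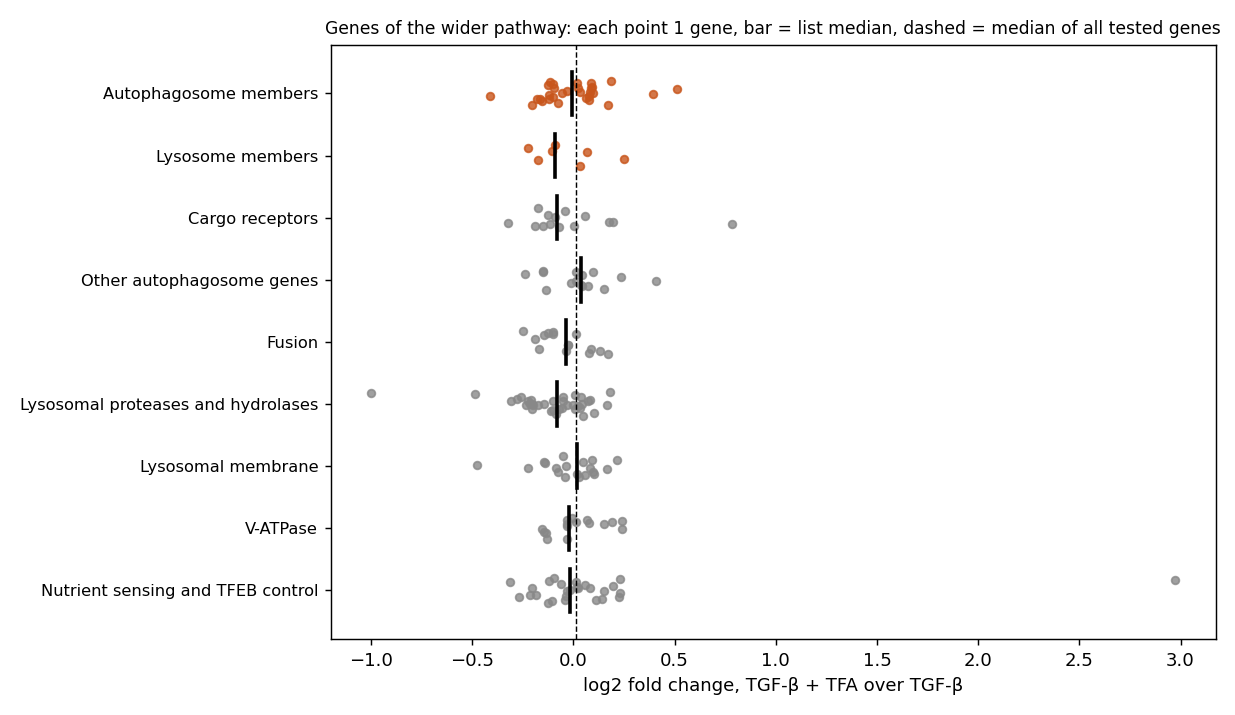
Fitted log2 fold change of each gene, TGF-β with TFA over TGF-β, for the autophagosome and lysosome genes (orange) and 7 further lists (grey), with the median of each list as a bar and that of all tested genes (0.01) as a dashed line. List medians lie between -0.09 and 0.04, and the far point on the right is PRKAA2, at trace level.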

How the data were processed

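Poly(A) RNA was sequenced from 6 DLD-1 libraries, 3 per group, with a dUTP kit that marks strand and adapters that carry molecular identifiers, per the labels' protocols. GRCh38 was the build, with StringTie 1.3.4d, HISAT2 2.0.4 and cutadapt 1.9 as tools whose roles are not stated, per the submitters' processing notes. The authors deposited an estimated count per gene and a length-normalised FPKM value. The pattern of small values (an excess at 4 over its neighbours) points to counts derived from coverage, so they may not equal numbers of independent fragments. No source used here says whether counting used strand or the identifiers, so genes that overlap on opposite strands may share counts. No per-sample column was left unmapped (0 unused).

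Estimated counts were rounded, filtered with filterByExpr, scaled by TMM and tested with the edgeR 4.0.16 quasi-likelihood test (R 4.3.3), with group as the only term and Benjamini-Hochberg adjustment over all 18265 tested genes at 0.05. Intervals are 95% intervals of the log2 fold change, TGF-β with TFA over TGF-β. Alternatives used DESeq2 1.42.0, limma 3.58.1 on log2(FPKM + 0.1, 0.5 or 1) for genes above 0.5 FPKM, other filters and scalings, a replicate block, removal of each library's length trend and libraries left out. Summing counts over overlapping genes was chosen after seeing the data. The procedure was tested on simulated counts without an outlying library or a length trend, so that test does not cover those features of these data. The members and lists were chosen with earlier results of these data known. All 37 genes are named. In each wider list the most abundant gene and the genes with the highest and lowest fitted value are named, together with genes that overlap a member or nearly match it. MAP1LC3C, CDX1, PTPRC and CD3E were not analysed here. Gene coordinates are those of the deposited table, and exon overlaps and near-identical copies (at least 90% over 400 bases) come from GENCODE 29. The annotation release behind the table is not stated, and 11 of the 37 genes have the same coordinates in GENCODE 29 (WIPI1, GABARAP and ATG9A do not), so the exon shares may not apply to the gene models that were counted.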

Additional observations from a re-analysis of the deposited data

How the results depend on the processing

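None of the 37 genes was called under any alternative run. The limma fits held 34 of the 37, and summing with overlapping genes concerned 5. With 3 libraries per group, the intervals of 25 of the 37 genes lay within a 1.5-fold change, and the others reached past it. Over all genes, calls on the higher side numbered 13 with DESeq2, 1 with the replicate block and 1 to 3 with 1 library left out, against 2, and on the lower side 2 with DESeq2 and 1 without both TGFb 1 and TGFb_TFA 3, against 0. Deviations of same-numbered libraries had correlations of 0.152, -0.422 and -0.415, and those of TGFb_TFA 3 and TGFb 2 had 0.553. With deviations centred within groups of 3, 1 outlying library per group shapes such values, so they cannot decide on pairing. The labels name no batch and the main fit used group only. The replicate block called 0 of the 37 genes. The cause of the changes below was not tested.

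The autophagosome median log2 fold change was -0.059, -0.044 and -0.034 with limma on log2(FPKM + 0.1, 0.5 and 1), -0.029 with the replicate block, -0.026 without both TGFb 1 and TGFb_TFA 3, and -0.078 to 0.0096 with 1 library left out. Without both TGFb 1 and TGFb_TFA 3 the median was 0.0033 for lysosome genes, 0.010 for cargo receptors, -0.019 for other autophagosome genes, -0.076 for fusion, -0.082 for the V-ATPase and -0.072 for nutrient sensing. With 1 library left out the medians ran from -0.13 to 0.011 for cargo receptors, -0.021 to 0.054 for other autophagosome genes, -0.12 to -0.039 for fusion, -0.039 to 0.028 for the V-ATPase, -0.084 to 0.0047 for nutrient sensing, -0.15 to -0.010 for lysosomal hydrolases and -0.050 to 0.082 for the lysosomal membrane. ATG2A ran from -0.96 to -0.045 and GLA from 0.017 to 0.37, without a change of sign.

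Signs turned without both TGFb 1 and TGFb_TFA 3 for RB1CC1 (0.21), ATG101 (-0.23), BECN1 (-0.058), PIK3C3 (0.040), PIK3R4 (0.14), AMBRA1 (0.10), ATG2B (0.33), ATG3 (-0.019), ATG5 (-0.034), MAP1LC3A (-0.12), GABARAP (-0.16), GABARAPL2 (-0.067), NBR1 (0.010) and TFE3 (0.0076). With limma at pseudocounts 0.1, 0.5 and 1 they turned for ATG101 (-0.032, -0.031 and -0.029), BECN1 (-0.0058, -0.0057 and -0.0055) and ATG16L1 (-0.013, -0.011 and -0.0092). ATG101 also had -0.00039 with the replicate block and -0.0029 with the length trend removed.

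With 1 library left out, values that changed sign ran from -0.058 to 0.26 for ULK2, -0.38 to 0.17 for RB1CC1, -0.17 to 0.11 for ATG101, -0.081 to 0.083 for BECN1, -0.11 to 0.015 for PIK3C3, -0.29 to 0.087 for PIK3R4, -0.25 to 0.014 for UVRAG, -0.21 to 0.17 for AMBRA1 and -0.50 to 0.17 for ATG2B. They also ran from -0.029 to 0.13 for ATG3, -0.19 to 0.023 for ATG4B, -0.036 to 0.11 for ATG5, -0.013 to 0.33 for ATG10, -0.037 to 0.066 for ATG16L1, -0.13 to 0.17 for GABARAP, -0.045 to 0.14 for GABARAPL2, -0.24 to 0.44 for TFEB, -0.26 to 0.094 for TFE3 and -0.14 to 0.11 for LAMP2.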
